A study of Mus musculus with 8 samples.

Results

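Gene expression was measured on 1 array that set RNA of mouse small intestinal organoids labelled as over expressing Ascl2, in Cy5, against RNA of organoids transduced with dsGFP, in Cy3. It was read beside a self-self array hybridised on that slide, which carried dsGFP RNA in both colours, so the comparison rests on 2 of the 8 arrays of the series. Both arrays were chosen by their labels. Small intestinal organoids are closed epithelial structures with crypt-like buds, grown from intestinal crypts. By the labels a pulse of 16 h with 4OH-tamoxifen, the drug that activates CreERT2, was given to all organoids of the series, and it switched on Ascl2 in the organoids of the array and GFP in the control. The promoter of the construct, the time from the pulse to RNA extraction and the number of cultures are not stated in the labels of this experiment. The slide held 2 further arrays against the same dsGFP RNA, 1 of Tcf7l2 null organoids and 1 of Tcf7l2 null organoids with Ascl2. In experiment 1, organoids transduced with CMV-driven Ascl2, with RNA taken after 24 h, were compared with VillinCreERT2 organoids, whose CreERT2 is driven by the villin promoter of the intestinal epithelium, on 2 arrays with exchanged dyes. There is no replicate of the array, so no test was possible and every value below is a description of these hybridisations.

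Ascl2 is a transcription factor of the basic helix-loop-helix family that is found at the crypt base. Such factors bind short DNA motifs called E-boxes as dimers with an E protein, and Id proteins block them by occupying the E protein. Crypt base columnar (CBC) stem cells, marked by Lgr5, receive Wnt and Notch signals from neighbouring Paneth cells and give rise to absorptive enterocytes and to secretory goblet, tuft, enteroendocrine and Paneth cells. Tcf7l2 is the main DNA-binding partner of beta-catenin, the effector of Wnt signalling, in this epithelium.

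Hormone genes and genes of the Paneth cell stood at opposite ends of the differences described below, so the sequence before the start sites of 2 hormone genes and 2 genes of the low end is shown. Each run holds 250 bases up to the transcription start, 5′ to 3′, from RefSeq on GRCm38.p6, with 2 motifs in capitals. They are the E-box CAGCTG, which reads alike on both strands, and the Tcf motif CTTTGAT, whose reverse complement reads ATCAAAG. Of the genes shown, Gip and Gcg encode incretin precursors, Defa21 a Paneth cell alpha-defensin and Cbx6 a chromobox protein of Polycomb complexes.
Gip (chr11:96024295-96024544, plus strand): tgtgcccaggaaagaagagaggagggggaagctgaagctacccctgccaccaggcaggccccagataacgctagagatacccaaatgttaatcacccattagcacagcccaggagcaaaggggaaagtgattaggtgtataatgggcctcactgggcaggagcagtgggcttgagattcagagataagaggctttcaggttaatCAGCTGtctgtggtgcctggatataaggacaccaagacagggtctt
Gcg (chr2:62483654-62483903, minus strand): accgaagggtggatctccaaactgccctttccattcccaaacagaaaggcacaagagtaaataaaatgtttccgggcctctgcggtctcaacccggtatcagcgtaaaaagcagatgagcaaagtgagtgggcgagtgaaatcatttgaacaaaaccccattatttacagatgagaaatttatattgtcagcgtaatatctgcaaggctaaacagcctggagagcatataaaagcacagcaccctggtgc
Defa21 (chr8:21025295-21025544, plus strand): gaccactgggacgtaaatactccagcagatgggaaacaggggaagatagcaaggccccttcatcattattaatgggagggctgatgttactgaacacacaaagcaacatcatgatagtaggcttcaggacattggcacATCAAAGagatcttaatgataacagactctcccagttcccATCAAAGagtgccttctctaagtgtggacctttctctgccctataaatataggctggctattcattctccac
Cbx6 (chr15:79834334-79834583, minus strand): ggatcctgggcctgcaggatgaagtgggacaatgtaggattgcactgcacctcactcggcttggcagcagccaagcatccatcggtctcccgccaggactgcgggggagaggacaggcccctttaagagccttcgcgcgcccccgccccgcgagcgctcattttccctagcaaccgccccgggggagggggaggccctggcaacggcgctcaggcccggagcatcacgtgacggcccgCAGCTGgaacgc
The CAGCTG of Gip began 46 bases before the start and that of Cbx6 12 bases before it. Defa21 held ATCAAAG 112 and 72 bases before its start, and the Gcg window held neither motif. Both strands were searched, and the motifs do not overlap, in windows from 250 bases before to 50 bases after the start. CAGCTG was present in 16.3% of 32851 promoters in the table and CTTTGAT in 3.73%. Of the 15 highest genes, the 15 lowest and a set of markers, 40 had a promoter sequence. CAGCTG was present for 10 of these and CTTTGAT for 4, so the genes shown do not represent that share. By gene, 12329 measured genes had a promoter sequence, among them 126 of the 170 higher and 123 of the 179 lower genes past 2-fold. CAGCTG was found for 18.1% of all these genes, 15.1% of the higher and 24.4% of the lower ones. CTTTGAT was found for 3.48%, 4.76% and 8.94% of the same groups, and for 5.08% of the 118 lower genes left without the near-identical alpha-defensin genes. A match is a description of letters in the window and not a binding site.

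A gene is given by 3 quantities, all on the log2 scale. The ratio of the array is own RNA over dsGFP RNA, the self-self ratio is dsGFP over dsGFP on the neighbouring array, and the difference is the ratio of the array minus the self-self ratio. As a technical comparator, the self-self array of experiment 3 minus that of experiment 2 is called the self-self difference. Of 41174 probes, 27493 passed the filter on dim probes and were measured on both arrays, which gave 19273 genes. On the array 53.8% of spots in Cy3 and 55.2% in Cy5 were well above background, on the self-self array 53.3% and 54.9%, and no spot was saturated. For 176 probes printed several times, the standard deviation over spots of a single-spot difference had a median of 0.0883 and a 95th percentile of 0.151. The self-self difference, which crosses slides and control RNAs, had a larger SD of 0.33, taken over genes. No hybridisation of the slide was repeated, so the spread between hybridisations alone was not measured.

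Over 19273 genes the difference had a median of 0.00 and an SD of 0.33, and 95% of genes lay between -0.64 and 0.58. Past 2-fold, 170 genes (0.882%) were higher and 179 (0.929%) lower. The self-self difference gave 171 higher genes (0.888%) and 14 lower ones (0.0727%). The number of genes past 2-fold on the high side was therefore no larger than between the self-self arrays of different slides and control RNAs. At 4-fold the counts were 34 higher (0.176%) and 16 lower (0.083%), against 5 (0.026%) and 0. The self-self genes past 2-fold were mostly bright. Of 3 equal groups of genes by brightness, the dimmest held 35 differences and 1 self-self difference past 2-fold and the brightest 157 and 137. With median centring of each array in place of loess, 99 genes were higher and 744 lower past 2-fold (self-self difference 16 and 1197). The median of all genes then shifted to -0.25. Without the self-self array subtracted, 202 genes were higher and 180 lower by loess. The self-self ratio itself passed 2-fold upward for 1 gene and downward for 3. A set of 131 higher and 149 lower genes passed 2-fold by loess, by the scanner's ratio and by the authors' deposited table, and had a self-self difference under 2-fold.

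**Figure D1:**
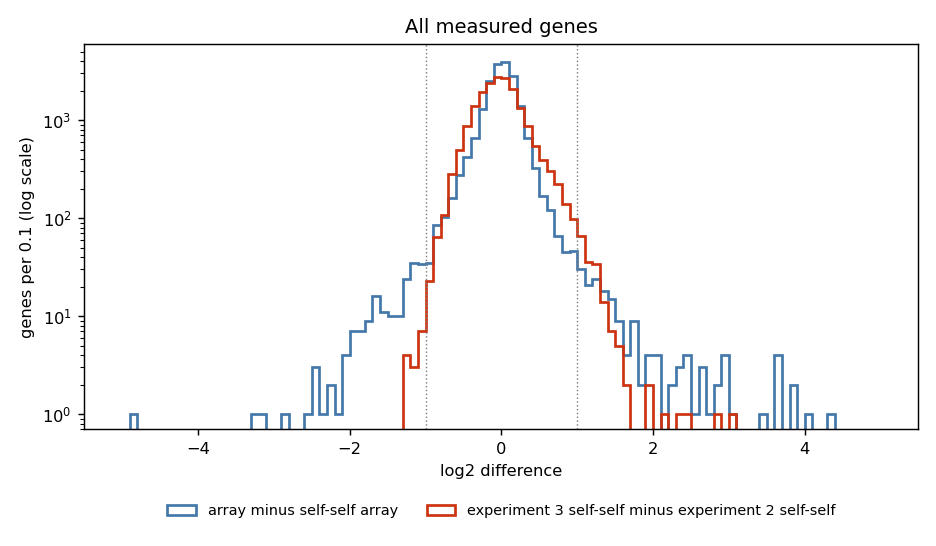
Distribution of the log2 difference over 19273 genes (blue) and of the self-self difference over 19255 genes (red), as genes per 0.1 on a log scale, with dotted lines at 2-fold. The red curve lies above the blue one on both shoulders inside 2-fold, while beyond 4-fold there are 34 higher and 16 lower blue genes against 5 and 0 red ones.

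The targeted gene was examined first. Ascl2 has 1 probe (mm9 chromosome 7, 150154439 to 150154498, exon and UTR not analysed here), which was well above background. Its ratio was -0.68 on the array and 0.01 on the self-self array, a difference of -0.69 beside a self-self difference of -0.27. Ascl2 was thus not higher in the RNA labelled as over expressing it. In experiment 1 the probe gave -0.31 and 0.12 on the replicates, on Tcf7l2 null -0.58 and on Tcf7l2 null with Ascl2 -0.94. No label says which part of Ascl2 the construct carries, so the probe does not check the label, and every direction below is that of the array labelled Ascl2 over expressing. Tcf7l2, which was not targeted here, differed by -0.33 at its brightest probe and by 0.19 and 0.30 at its others. At that brightest probe it was -0.72 on Tcf7l2 null and -0.20 on Tcf7l2 null with Ascl2, so it did not separate the arrays by label either, and the deleted part of the gene is not stated.

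Some values of the slide go against what its labels would group. Gcg, Gip, Cck, Sst, Lgr5 and Olfm4 had the same sign on the array and on Tcf7l2 null with Ascl2, and the opposite sign on both Ascl2 arrays of experiment 1. On Tcf7l2 null, which carries no Ascl2 by its label, Aqp4 was 1.62, Id2 2.99 and Lgr5 0.38, with the sign of both experiment 1 replicates (Aqp4 1.12 and 1.22, Id2 1.71 and 1.07, Lgr5 1.04 and 0.52). The array labelled Ascl2 over expressing had that sign for Aqp4 (1.49) and Id2 (0.96) and not for Lgr5 (-1.92). Whether labels of the slide were exchanged was not tested, since neither targeted gene checks them, and every value below is tied to the array by its label alone.

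The Id genes, whose products inhibit such factors, were above 0, while the genes of E protein partners were divided around 0. Of 8 measured genes for Ascl2, E proteins and Id factors, 6 were above 0 with a median of 0.37, and the self-self difference had a median of -0.28. Id2 had a ratio of 1.16, a self-self ratio of 0.21 and a difference of 0.96, but 1 of its 3 probes gave -0.07. Id1 differed by 0.64 and Id3 by 0.26. Of the E protein genes, Tcf4 differed by 0.49, Tcf12 by 0.06, with 3 of its 5 probes the other way, and Tcf3 by -0.14. Id4 was not well above background in the dsGFP RNA. It was at least 2.42-fold higher at its brightest probe and differed by 0.81 at the other. Id2 was also higher in experiment 1, at 1.71 and 1.07, and on Tcf7l2 null at 2.99, but not on Tcf7l2 null with Ascl2 at -0.43.

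Marker genes of the CBC stem cell were lower on the array. Below 0 were 26 of 29 measured genes (median -0.46), and 6 were at least 2-fold lower against 0.929% of all genes. No member passed 2-fold in the self-self difference, whose median was 0.01. Fewer cells of a type and less RNA per cell cannot be told apart in such bulk RNA, here and in each cell type below. Lgr5, the receptor for R-spondin, had a ratio of -1.72, a self-self ratio of 0.21 and a difference of -1.92, which is 3.79-fold lower. Olfm4, a secreted glycoprotein of stem cells, had -1.97, 0.01 and -1.98, with -1.96 at its other probe. The self-self difference of Olfm4, -0.99, lay just inside 2-fold, while that of Lgr5 was 0.18. The ephrin receptor Ephb3, which positions cells along the crypt, differed by -1.25 and the cell division gene Cdca7 by -1.01. Slc14a1 was at least 2.15-fold lower, its own RNA being not well above background. Smoc2 differed by only -0.31, Rnf43 by -0.22 and Prom1 by -0.19, all within the SD of the self-self difference. Sox9 differed by -0.75, with 1 of 3 probes at 0.13 and a probe printed 10 times at -0.84 ± 0.0301 (SE over 10 and 9 spots). The water channel Aqp4 went the other way, with a ratio of 1.39, a self-self ratio of -0.10 and a difference of 1.49 that all 3 probes shared (1.49 to 1.52). Clca3b was also above 0 at 0.70.

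Wnt and Notch genes as lists showed smaller differences. The Wnt list had a median of -0.20 over 24 measured genes and 3 members at least 2-fold lower (all genes 0.929%), Lgr5, Ephb3 and Axin2, which are all stem cell list genes too. Axin2, the feedback inhibitor of the pathway, had a ratio of -0.96, a self-self ratio of 0.18 and a difference of -1.14. The ligand Wnt3, which Paneth cells make, differed by -0.98 and the target Sp5 by -0.84. The targets Ccnd1 and Myc and the effector Ctnnb1 were near 0 at 0.17, 0.15 and 0.18, so the classical targets did not form a uniform group. Of 21 measured Notch genes the median was 0.06, a value that changed sign with median centring. Its 1 member past 2-fold was the ligand Jag2 at -1.33, with a ratio of -0.88 and a self-self ratio of 0.45. The Notch effector Hes1 differed by 0.34, but this came from a self-self ratio of -0.83 and an array ratio of -0.48. Dll4 was 0.43, Dll1 -0.04, Atoh1, the secretory fate factor, 0.20, and Hes5 -0.66.

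Paneth cell genes had the lowest median of the 33 lists. These cells sit between the stem cells, secrete antimicrobial proteins and signal to the stem cells. Of 28 listed genes 21 were measured, 17 of them below 0, with a median of -1.12, and 14 were at least 2-fold lower against 0.929% of all genes. The self-self difference had a median of 0.06, with 1 member past 2-fold. Mptx1, a mucosal pentraxin, had a ratio of -2.96, a self-self ratio of 0.23 and a difference of -3.19, which is 9.13-fold lower. Defa21 had -2.15, 0.06 and -2.22, and the ribonuclease Ang4 -2.06, 0.03 and -2.09, with -1.93 at its other probe. All 3 were clear of their self-self differences, which ran from -0.39 to -0.04. The phospholipase Pla2g2a differed by -1.69, the defensin-activating protease Mmp7 by -1.66, and the lectin Reg3a by -1.80. Lysozyme 1 (Lyz1) differed by -1.49, with a ratio of -1.84 and a self-self ratio of -0.36, and its self-self difference of 1.03 was itself past 2-fold. Lyz2, also made by macrophages, was -1.87 at its brightest probe and -0.35 at the other. The 7 alpha-defensin genes measured ran from -2.22 (Defa21) to -0.78 (Defa24). They are near-identical copies whose probes may take up each other's RNA, so they are not independent of each other. Not all members of the list were below 0, since Nupr1 was 0.61, Spink4 0.32 (self-self difference 0.55) and Clps 0.09. Itln1 was lower at -0.57.

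**Figure D2:**
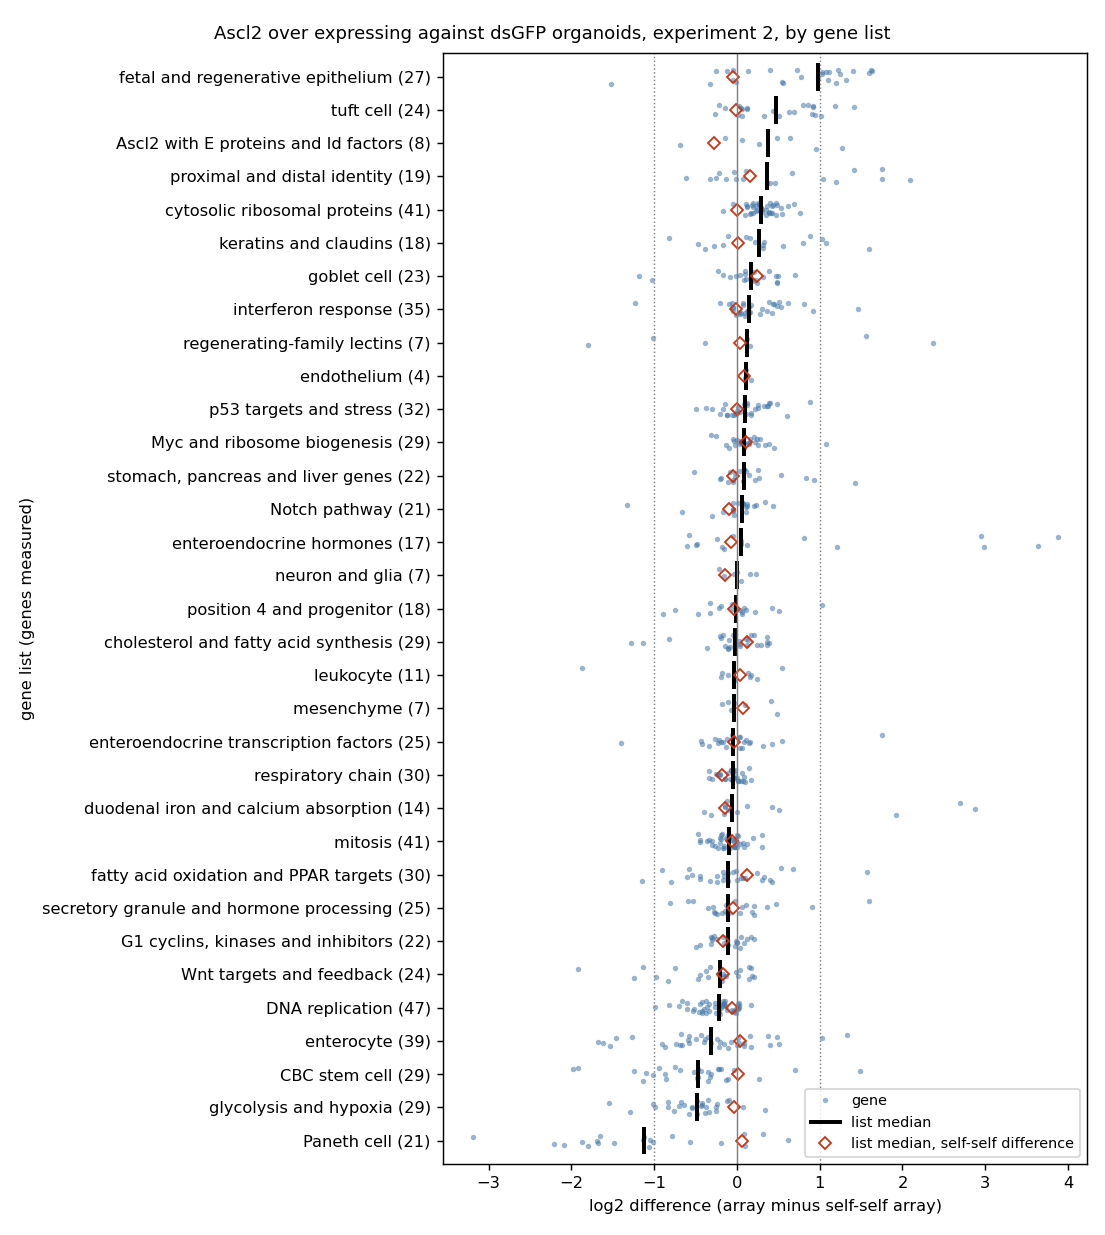
Log2 difference of each measured gene (points) by gene list, with the list median (black bar) and the median of the self-self difference (red diamond), and dotted lines at 2-fold. The Paneth list has the lowest median (-1.12) and the fetal and regenerative list the highest (0.98), while the medians of the self-self difference stay between -0.28 and 0.24.

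Goblet cell genes did not follow those of Paneth cells. Of 23 measured genes 17 were above 0 with a median of 0.17, which is below the self-self median of 0.24 and became -0.23 with median centring. The disulfide isomerase Agr2 differed by 0.70, the trefoil peptide Tff3 by 0.50 and the mucin Muc2 by 0.10 (self-self difference 0.76). The 2 members past 2-fold were both lower, against 0.929% of all genes. Clca1, a secreted mucus protein, was -1.03 with a self-self ratio of 0.51, and the guanylin gene Guca2a was -1.18.

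A few enteroendocrine hormone genes were far higher while most of their list was near or below 0. Enteroendocrine cells are rare secretory cells, each making 1 or a few peptide hormones. Of 22 listed hormone genes 17 were measured, and 5 of them were at least 2-fold higher against 0.882% of all genes, yet the list median was 0.05. Gcg, which encodes proglucagon, had a ratio of 3.87, a self-self ratio of -0.01 and a difference of 3.88 ± 0.0608 (SE over 8 and 10 spots of 1 probe), which is 14.7-fold higher. Gip, the glucose-dependent insulinotropic polypeptide gene, had 3.84, 0.20 and 3.63, which is 12.4-fold higher. Sst, which encodes somatostatin, had 2.96, -0.03 and 2.99 ± 0.0612 (SE over 10 and 8 spots). Cck, which encodes cholecystokinin, had 3.13, 0.18 and 2.95. Their self-self differences lay between -0.30 and -0.04, so these 4 genes stood far outside the technical comparator. Peptide YY (Pyy) was 1.21 at its brightest probe and 0.33 at the other, and ghrelin (Ghrl) was 0.81. The remaining hormones were near or below 0, among them Tac1 at 0.12, the serotonin enzyme gene Tph1 at -0.18, neurotensin (Nts) at -0.24 and secretin (Sct) at -0.60.

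The general genes of the lineage were not higher with the hormones. Neurog3, the factor that starts the lineage, had a ratio of -0.42, a self-self ratio of -0.30 and a difference of -0.12. Over 25 measured transcription factors the median was -0.05, and over 25 genes of secretory granules and hormone processing it was -0.11. The granule proteins Chga and Chgb differed by -0.02 and -0.10 and the convertase Pcsk1 by -0.14. Scg5, a chaperone of a prohormone convertase, was the exception among granule genes, with a ratio of 1.82, a self-self ratio of 0.23 and a difference of 1.59. Abcc8, a subunit of the ATP-sensitive potassium channel, was 0.91, but 0.03 at its other probe. Among the factors, Pdx1, a factor of the duodenum and pancreas, was at least 3.25-fold higher and Isl1 at least 1.46-fold higher, both not well above background in dsGFP RNA. Pax4 was lower, with a ratio of -1.38, a self-self ratio of 0.01 and a difference of -1.39. Insm1 and Resp18 were -0.22 and -0.81.

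**Figure D3:**
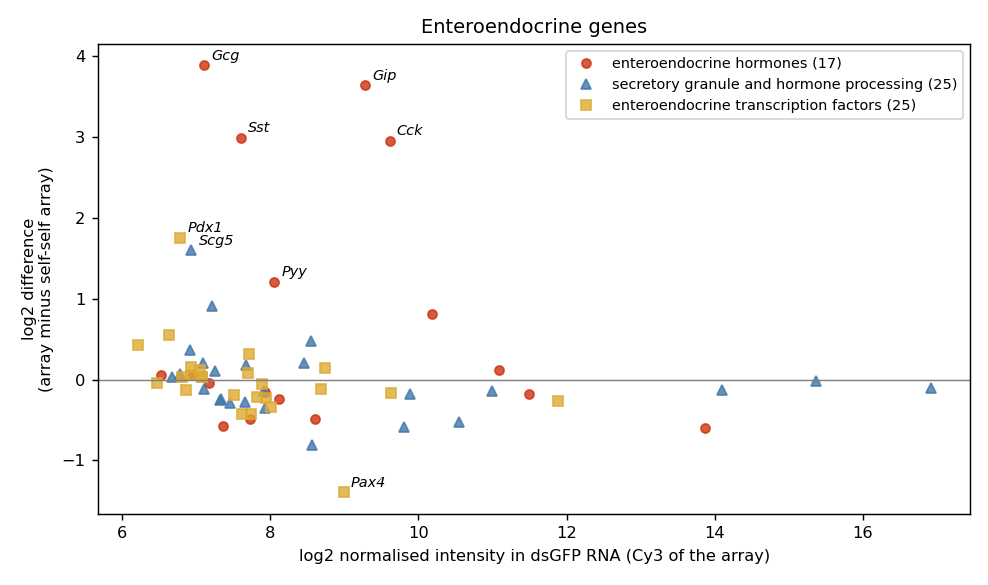
Log2 difference against the log2 normalised intensity in dsGFP RNA for 17 hormone, 25 granule and 25 transcription factor genes, with names for genes past 2-fold. Gcg, Gip, Sst and Cck stand at 2.95 to 3.88, while most granule and factor genes lie within 1 of 0. The value of Pdx1 rests on a dsGFP signal not well above background.

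Tuft cell genes were mostly higher. Tuft cells are chemosensory cells that make eicosanoids and interleukin 25. Of 24 measured genes 21 were above 0, with a median of 0.47 and a self-self median of -0.02. At least 2-fold higher were 3, against 0.882% of all genes, among them Alox5 at 1.19 (its 3 probes 0.37 to 1.19) and the actin-binding Avil at 1.02. The eicosanoid genes Alox5ap and Ptgs1 followed at 0.95 and 0.85, and the taste-pathway channel Trpm5 at 0.69. Dclk1 was 0.51, from a ratio of 0.84 and a self-self ratio of 0.33. Hpgds, Il17rb and the lineage factor Pou2f3 did not share this, at -0.22, -0.26 and 0.03, the last with own RNA not well above background. Alox5ap and Ptpn6 (0.91) are also expressed by leukocytes. Of 11 measured leukocyte genes, 5 were above 0 with a median of -0.04, and the pan-leukocyte gene Ptprc was at least 1.46-fold higher, not well above background in dsGFP RNA.

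Enterocyte genes were divided with a median below 0. Of 39 measured genes 26 were below 0 (median -0.32, self-self median 0.03), 5 past 2-fold on the low side and 2 on the high side, against 0.929% and 0.882% of all genes. Lactase (Lct) had a ratio of -1.62, a self-self ratio of 0.00 and a difference of -1.62. The drug-metabolising Cyp3a11 differed by -1.67 (self-self difference -0.76), the apolipoprotein Apoc3 by -1.54, the fructose transporter Slc2a5 by -1.46 and the brush-border protease Mep1a by -1.27. Fabp1, the fatty acid carrier, was -0.90. The peptide transporter Slc15a1 was higher, with a ratio of 1.42, a self-self ratio of 0.09 and a difference of 1.33, and the purine enzyme Ada was 1.03. The alkaline phosphatase Alpi differed by 0.48, which came from a self-self ratio of -0.54 and an array ratio of -0.06.

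Genes of mineral uptake showed a few large differences in a list otherwise near 0. Of 14 measured genes of duodenal iron and calcium absorption, 3 were at least 2-fold higher, against 0.882% of all genes, and the median was -0.06. Ferroportin (Slc40a1), the iron exporter, had a ratio of 2.79, a self-self ratio of 0.10 and a difference of 2.69. The vitamin D-dependent calcium binder S100g had 1.89, -0.03 and 1.92. The ferric reductase Cybrd1 was at least 7.34-fold higher at its brightest probe, which was not well above background in dsGFP RNA, and 0.26 at the other. The vitamin D receptor Vdr was 0.43, ferritin heavy chain Fth1 0.51, the iron importer Slc11a2 0.00 and Heph -0.14. Genes of proximal and distal identity, taken as 1 list, had a median of 0.37 (self-self median 0.16). Of 19 measured, 12 were above 0 and 7 below, the lowest being Osr2 at -0.62. At least 2-fold higher were 6, against that same share of 0.882%. They were Otop3 at 2.10, Ces1g at 1.42, Onecut2 at 1.19, and Pdx1, Hoxa10 (at least 3.32-fold) and Hoxa9 (at least 1.93-fold, against a fitted difference of 1.05), the last 3 with dsGFP RNA not well above background.

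Genes of the fetal and regenerative epithelium had the highest median of the 33 lists. This programme, which appears in fetal organoids and after injury, includes annexins, clusterin and keratins. Of 31 listed genes 27 were measured, 20 of them above 0 with a median of 0.98 and a self-self median of -0.05, and 13 were at least 2-fold higher against 0.882% of all genes. Clusterin (Clu) had a ratio of 1.58, a self-self ratio of -0.05 and a difference of 1.63. S100a11 had 1.41, -0.20 and 1.62, and Krt8 1.60, 0.01 and 1.59, with a self-self difference of 0.63 for Krt8. Krt18, its partner, had 1.52, 0.45 and 1.07. The annexins Anxa8, Anxa3, Anxa5 and Anxa1 differed by 1.31, 1.22, 1.11 and 0.98, that of Anxa8 with an SE of 0.0282 over 10 spots on each array. Mesothelin (Msln) was 1.24, tissue factor (F3) 1.20 and Il1rn 1.02, and the alarmin Il33 was at least 2.64-fold higher with dsGFP RNA not well above background. Ly6a, which encodes Sca-1 and is a leading marker of the state, went the other way with a ratio of -1.34, a self-self ratio of 0.18 and a difference of -1.53. Tubb6 and Tm4sf1 were -0.25 and -0.32. With median centring the list median was 0.46, where that of all genes was -0.25.

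The regenerating-family lectins, secreted by the epithelium, did not share a direction. Reg1 had a ratio of 2.29, a self-self ratio of -0.08 and a difference of 2.37, and Reg3g had 1.56, 0.00 and 1.55. Reg3b was 0.16, Reg3d -1.01 and Reg3a -1.80. The dsGFP signal of Reg1 differed by over 1 between the arrays, as for 146 of 19273 genes and for 5 of the 349 past 2-fold, so its ratios were measured at different brightness.

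Genes of the cell cycle were slightly lower, without a member past 2-fold. DNA replication genes were below 0 in 41 of 47 cases (median -0.21, self-self median -0.06) and mitosis genes in 31 of 41 (median -0.10). The primase subunit Prim2 was -0.99, the clamp loader Rfc2 -0.82 and the helicase subunit Mcm7 -0.70, from a ratio of -0.90 and a self-self ratio of -0.19. Mki67 differed by -0.45, Cenpf by -0.47, Pcna by 0.17 and Kif23 by 0.31. Most of these lay within 95% of all genes (-0.64 to 0.58). Glycolysis and hypoxia genes were lower in 27 of 29, with a median of -0.48 and a self-self median of -0.03. Their 3 members past 2-fold, against 0.929% of all genes, were the mitophagy receptor Bnip3 at -1.55, the lactate exporter Slc16a3 at -1.29 and the collagen hydroxylase P4ha2 at -1.02, followed by Ndrg1 at -0.98. Gapdh was -0.67 and Ldha -0.54, though Ldha had a self-self ratio of 0.51 and its other probe gave 0.00. Cytosolic ribosomal protein genes were above 0 in 39 of 41 with a median of 0.30, but the median was -0.31 with median centring, where all genes had -0.25, so their direction depends on the scaling.

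Single genes stood out in lists that were otherwise near 0. The immunoproteasome subunit Psmb8 differed by 1.46 (probes 1.46 and 1.54) and Psmb9 by 0.92, while Ifitm3, an antiviral membrane protein, was -1.24 and the interferon list had a median of 0.14. The lipase inhibitor Angptl4 was 1.57 and the thioesterase Acot1 -1.15, in a list of fatty acid oxidation genes with a median of -0.11. The lipid synthesis genes Scd1 and Fasn were -1.28 and -1.14, where the list median was -0.02. Fasn had a self-self ratio of 0.49, and its other probe gave -0.56. Mycn was 1.08 at its brightest probe and -0.10 at the other. The retinol carrier Rbp4, a liver gene, was 1.43.

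Markers of non-epithelial cells were few, and their list medians were near 0. Of the 13 mesenchyme genes 7 were measured, 3 above 0 and 4 below, with a median of -0.04. The collagens Col1a1 and Col3a1 and Dcn were not well above background in either RNA. Pdgfrb and Acta2 were measured in both RNAs. Pdgfrb differed by 0.48 and Acta2 by 0.41 at its brightest probe, with 0.04 and -0.05 at its others. Of 8 endothelial genes 4 were measured with a median of 0.11, and of 10 neural genes 7 with a median of 0.00. No gene of these 3 lists passed 2-fold. The epithelial identity of both RNAs was seen in signals well above background for Muc2, Fabp1, Lyz1, Chga, Alpi and Krt8.

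The genes with the highest differences by the naming rule were not confined to the marker lists. Khdrbs3, an RNA-binding protein, had a ratio of 4.27, a self-self ratio of 0.25 and a difference of 4.02, which is 16.2-fold higher (mm9 chromosome 15, 68923876 to 68923935). Aldh1l1, an enzyme of folate metabolism, had 3.54, -0.06 and 3.60. Kbtbd11, a BTB and kelch domain protein, was 3.43, although 1 of its 3 probes gave -0.10. The phosphatase Dusp16 was 2.99 at its brightest probe and -0.35 and 0.26 at the others. Agpat4, an acyltransferase of phospholipid synthesis, was 2.98 and 2.84 at its probes. The others of the 15 highest were AI467606 (3.07), BC064078 (2.83), Pcp4l1 (2.71), the aldo-keto reductase Akr1b8 (2.62) and the kinase Csnk1e (2.49), beside Gcg, Gip, Sst, Cck and Slc40a1. The value of Csnk1e joins a ratio of 1.68 with a self-self ratio of -0.81. Some high genes outside the rule were chosen after their values were seen. Gas6, a ligand of TAM receptors, had the highest difference of all, 4.35, and no value in the authors' deposited table. Cstf2t was at least 14.8-fold higher, with dsGFP RNA not well above background. Ptprz1 was 3.69, but its self-self difference was 1.59 and its dsGFP signal differed by -2.01 between the arrays.

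Rgcc, a regulator of the cell cycle, had the lowest difference of all genes, with a ratio of -4.54, a self-self ratio of 0.27 and a difference of -4.81, which is 28.0-fold lower (mm9 chromosome 14, 79688717 to 79688776). Cbx6 had -3.02, 0.19 and -3.20, with its 3 probes between -3.20 and -0.57. The asparaginase Aspg was -2.88 and, at its other probe, -0.57. Pdia2, a disulfide isomerase, was -2.45, the proteoglycan Prelp -2.19 (other probe -0.26), the protease Prss30 -2.08, the calcium release channel Itpr1 -2.06 and -1.91 at its probes, and Apol10a -2.03. The complement regulator C4bp (-2.46), Dnah2 (-2.20) and Myo18b (-1.99) each had a further probe near 0, at 0.01, 0.09 and 0.02. Mptx1, Defa21, Ang4 and Olfm4 completed the 15 lowest. The remaining genes of the 15 had 1 kept probe, or probes that all lay past 2-fold.

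**Figure D4:**
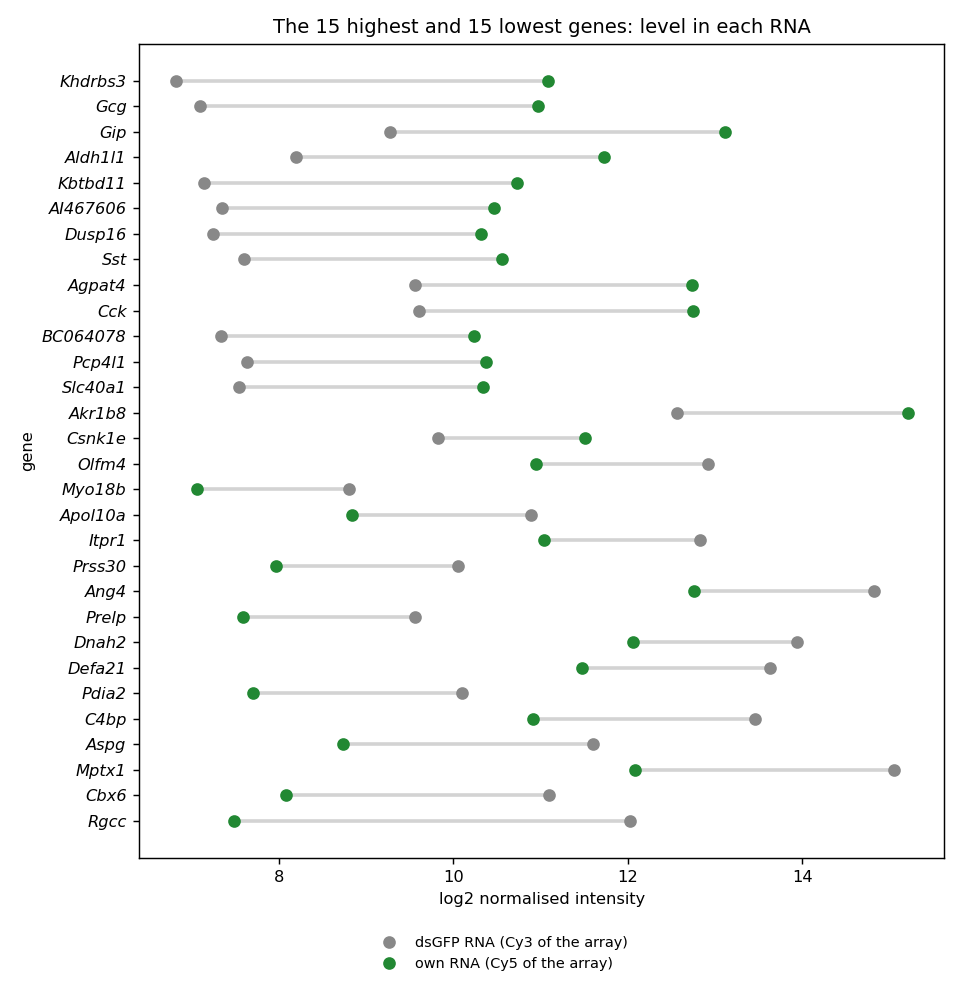
Log2 normalised intensity of the 15 highest and 15 lowest genes in the own RNA (green) and the dsGFP RNA (grey) of the array. Among the highest, most dsGFP signals lie below 10 and Akr1b8 is the brightest. Among the lowest, Mptx1 runs from 15.04 in dsGFP RNA to 12.08 in own RNA and Rgcc from 12.03 to 7.49.

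Experiment 1, with other controls, gave values of the opposite sign for several of these genes. In its replicates Lgr5 was 1.04 and 0.52, Olfm4 1.55 and 0.28, and Axin2 0.72 and 0.17, where the array of experiment 2 gave -1.92, -1.98 and -1.14. Gcg was -1.30 and -1.87, Gip -1.06 and -1.03, Sst -1.66 and -1.72 and Cck -1.12 and -1.60, where experiment 2 gave 2.95 to 3.88. The CBC list had medians of 0.52 and 0.31, the Paneth list 0.27 and 0.05 and the glycolysis list 0.33 and 0.24, all below 0 in experiment 2. These differences between the experiments were not tested. Other genes had the same sign on the array and on both replicates of experiment 1. In those replicates Aqp4 was 1.12 and 1.22, Clu 0.94 and 0.87, Reg3g 1.56 and 1.14, Krt18 1.45 and 0.46, and Agpat4 1.29 and 1.28. Lct was -0.97 and -1.12 and Cyp3a11 -0.97 and -1.46. Rgcc, at -0.06 and 0.04, showed nothing of its difference of -4.81. Tcf7l2 null with Ascl2 did not share the sign for Aqp4 (-0.48), Clu (-0.22) and Krt18 (-0.72). It did for Reg3g (1.76), Agpat4 (1.90), Lct (-0.34) and Cyp3a11 (-1.21). In experiment 1, 47 genes (0.245%) were at least 2-fold higher and 59 (0.307%) lower by the mean of its replicates.

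The other arrays of the slide share the dsGFP RNA and the self-self array with this one, so their values are given side by side and not correlated. On Tcf7l2 null with Ascl2, Gcg was 4.95, Gip 4.30, Cck 3.86, Sst 3.27, Khdrbs3 3.45, Aldh1l1 4.51, Kbtbd11 4.40 and Slc40a1 2.76. On the same array Lgr5 was -2.23, Olfm4 -5.10, Mptx1 -3.07, Rgcc -4.68 and Cbx6 -3.22. On Tcf7l2 null alone, Gip was 0.28, Sst -0.18, Khdrbs3 -0.08 and Aldh1l1 0.12, all within the SD of the self-self difference (0.33). Outside it lay Gcg at 0.96, Olfm4 at 0.79, Cbx6 at 0.51, Lgr5 at 0.38 and Cck at 0.36. Rgcc was -0.42 and Mptx1 -1.21. The groups differed in other lists. The regenerative list had a median of 0.98 on the array, 0.37 on Tcf7l2 null and -0.10 on Tcf7l2 null with Ascl2, where Clu was -0.22 and Anxa8 -0.10. DNA replication had -0.21, 0.41 and -1.07, mitosis -0.10, 0.57 and -1.09, and tuft cell genes 0.47, -0.09 and 0.83. Aqp4 was 1.49 on the array, 1.62 on Tcf7l2 null and -0.48 on Tcf7l2 null with Ascl2. No test of these differences was possible with 1 array each.

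**Figure D5:**
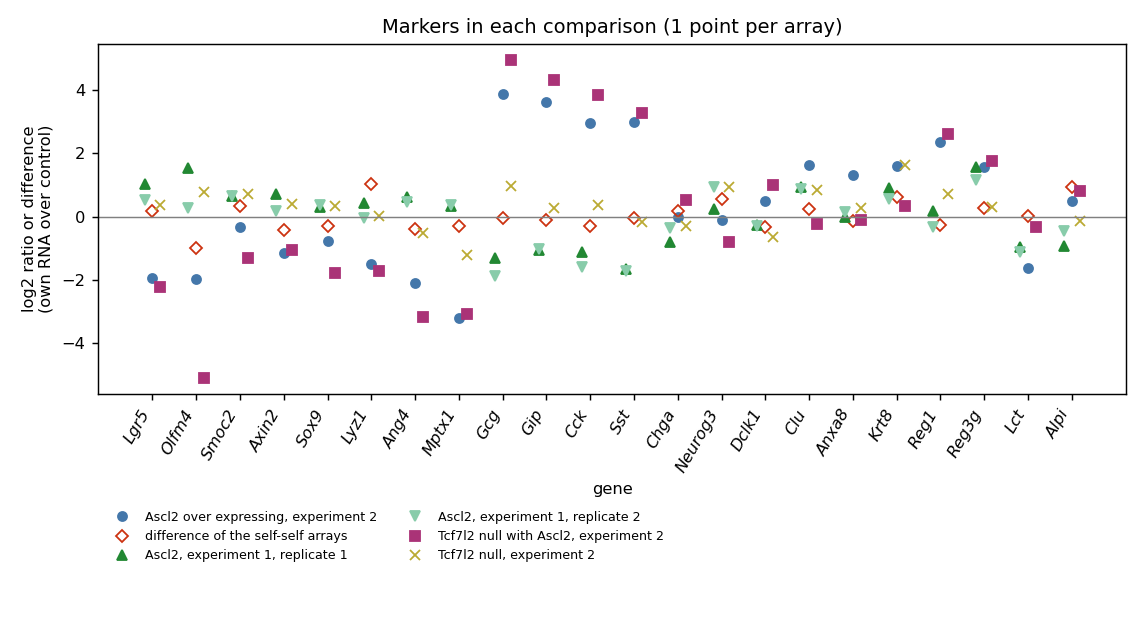
Log2 values of 22 marker genes, 1 point per array or difference of arrays: the Ascl2 over expressing array of experiment 2, the self-self difference, experiment 1 replicates (ratios) and the other arrays of the slide, the latter also minus the self-self array. Gcg, Gip, Cck and Sst lie at 2.95 to 3.88 in experiment 2 and below 0 in both replicates of experiment 1, with Lgr5 and Olfm4 the other way round.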

How the data were processed

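The deposited scanner files hold spot and local background intensities of 45018 spots per array, 1639 of them controls, made with Feature Extraction 10.5.1.1 per the file headers, and the scanner's log10 ratio of Cy5 over Cy3. A table deposited by the authors gives log2 ratios that equal the scanner's on both arrays used here, with medians of 0.00 and 0.02. The amount of RNA labelled was 500 ng per the labels' protocols. Median intensities were background-corrected with normexp (offset 50), normalised by loess per array, which gave control and outlier spots no weight, and averaged over spots of a probe (limma 3.58.1, R 4.3.3). Loess sets most genes near 0. Local background over 10 times an array's median was replaced by that median, chosen after seeing the data: 86 values on replicate 2 of experiment 1, 1 on Tcf7l2 null and 0 on the arrays described here. A probe was kept if well above background in a channel of at least 2 arrays, and the brightest stood for its gene. RefSeq for GRCm38.p6 named 26918 probes by their own accession and 111 by another listed one, and 14145 kept the array's name. Coordinates are mm9. A gene not well above background in 1 RNA has only a bound, the brighter mean over the higher of the dim signal and the lowest signal well above background, given as at least N-fold and never set above the fold of the array's ratio or of the fitted difference. 1 array limits the precision.

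Named genes are the 15 highest and 15 lowest with a current symbol that passed 2-fold by loess, scanner ratio and deposited table with a self-self difference under 2-fold, the 4 highest and 4 lowest of each of 33 lists, and a set of markers. Further list members were chosen after their values were seen, and some members that the rule names are not reported here. The members and lists were chosen with earlier results of these data known. The labels of the experiment 3 self-self array give VillinCreERT2 as genotype and Ascl2loxp/loxp in the description. The code was tested on simulated data.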

Additional observations from a re-analysis of the deposited data

Results flagged for a closer look

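The 10 results here had a sign in experiment 2 opposite to that of both replicates of experiment 1, and the differences between the experiments were not tested. The list medians were -0.46 for CBC stem cell genes (0.52 and 0.31 in experiment 1), -1.12 for Paneth cell genes (0.27 and 0.05) and -0.48 for glycolysis and hypoxia genes (0.33 and 0.24). Among stem cell and Wnt genes Lgr5 was -1.92 (1.04 and 0.52), Olfm4 -1.98 (1.55 and 0.28) and Axin2 -1.14 (0.72 and 0.17). Among hormones Gcg was 3.88 (-1.30 and -1.87), Gip 3.63 (-1.06 and -1.03), Cck 2.95 (-1.12 and -1.60) and Sst 2.99 (-1.66 and -1.72). The experiments also differ in slide, control organoids and stated promoter, whose part cannot be told apart from that of the culture.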

How the results depend on the processing

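The counts of 170 higher and 179 lower genes are set beside those of the self-self difference in brackets (171 and 14). They became 960 and 805 (808 and 740) with the scanner's log ratio and 374 and 484 (395 and 278) with the authors' deposited table. With median centring they were 99 and 744 (16 and 1197). At 1.5-fold they were 468 and 603 (974 and 563) and at 4-fold 34 and 16 (5 and 0). The counts of the array stayed within 1.5 times of 170 and 179 under the other alternatives. The median of tuft cell genes was 0.87 by the scanner's ratio and 0.95 by the deposited table. Median centring, which moved the median of all genes to -0.25, gave -0.84 for CBC, -1.76 for Paneth, -0.86 for enterocyte, 0.46 for regenerative, -0.72 for DNA replication, -1.02 for glycolysis and -0.31 for ribosomal protein genes. The last changed sign. In the self-self difference with median centring, these lists in the same order had medians of -0.33, -0.72, -0.69, -0.43, -0.58, -0.67 and -0.84. The cause of these shifts was not tested. Of 79 named genes past 2-fold, 79 kept their sign under every alternative that measured them and 63 stayed past 2-fold. Leaving out either replicate of experiment 1 moved 0 of its 33 list medians by more than the SD of the self-self difference. With 1 array the spread between cultures is unknown, and signals near background understate a difference. No paired analysis was possible because the comparison has 1 array and a self-self array of the same slide.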
